A study of Mus musculus with 6 samples.

Results

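Smooth muscle and pericyte genes mark the cells that wrap and tighten the blood vessels of the skin and the small muscles that pull on its hairs. The 10 genes described here were taken by symbol from the table of 21959 genes and fall into a contractile group of 7 (Acta2, Myh11, Tagln, Cnn1, Mylk, Smtn and Lmod1) and a pericyte group of 3 (Rgs5, Notch3 and Cspg4). All 10 were found, and all 10 were among the 14875 genes that passed the filter on low counts and were tested. They were measured by poly(A) RNA-seq in full-thickness dorsal skin of wild-type male C57BL/6 mice, shaved at 7 weeks of age while their hair follicles were in telogen, the resting phase of the hair cycle. The vehicle group (n = 3 mice) received a mixture of 30% dipropylene glycol and 70% water on the shaved skin. The rebamipide group (n = 3 mice) received 3% rebamipide, a drug used to protect the stomach lining, in the same mixture. Each treatment was given once a day for 7 days. The comparison asked how the skin transcriptome differed after rebamipide at a time before new hair growth began. Each library holds the RNA of all the cell types in a piece of skin, so fewer cells of a type and less RNA per cell cannot be told apart.

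Smooth muscle cells shorten when calcium and calmodulin switch on myosin light chain kinase, which lets smooth muscle myosin pull on filaments of smooth muscle actin. Calponin, transgelin, smoothelin and leiomodin bind or organise those filaments, and most of these genes are switched on by serum response factor together with myocardin at a sequence called the CArG box. In skin, smooth muscle lines arterioles and veins and forms the arrector pili muscles, and the connective tissue sheath of the hair follicle also contains Acta2. Pericytes sit on capillaries, are recruited by PDGF-B that endothelial cells release, and receive Notch signals from the same endothelial cells through the receptor Notch3.

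RefSeq promoter sequences (GRCm38.p6) were at hand for 8 of the 10 genes, and 3 are shown here. Acta2 is shown as the member with the highest level, Smtn as the contractile member with the most negative fitted fold change and Rgs5 as the member with the largest fold change. Each is the 250 bases before the transcription start in the direction of the gene, at chr19:34255374-34255623 on the minus strand for Acta2, chr11:3539293-3539542 on the minus strand for Smtn and chr1:169655251-169655500 on the plus strand for Rgs5. Capitals mark matches to the CArG box with 1 departure from its consensus inside the central A/T stretch, and to TGGGAA or its reverse complement TTCCCA, the core letters bound by the Notch effector RBPJ.
Acta2: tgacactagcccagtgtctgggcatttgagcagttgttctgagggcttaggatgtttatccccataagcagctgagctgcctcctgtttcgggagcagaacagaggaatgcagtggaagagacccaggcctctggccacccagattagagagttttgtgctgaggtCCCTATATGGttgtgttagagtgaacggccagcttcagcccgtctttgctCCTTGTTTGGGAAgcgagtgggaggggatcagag
Smtn: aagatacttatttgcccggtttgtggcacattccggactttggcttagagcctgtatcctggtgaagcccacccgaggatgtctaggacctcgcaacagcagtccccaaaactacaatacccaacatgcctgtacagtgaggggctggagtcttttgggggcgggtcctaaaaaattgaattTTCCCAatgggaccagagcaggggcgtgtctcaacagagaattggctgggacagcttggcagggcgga
Rgs5: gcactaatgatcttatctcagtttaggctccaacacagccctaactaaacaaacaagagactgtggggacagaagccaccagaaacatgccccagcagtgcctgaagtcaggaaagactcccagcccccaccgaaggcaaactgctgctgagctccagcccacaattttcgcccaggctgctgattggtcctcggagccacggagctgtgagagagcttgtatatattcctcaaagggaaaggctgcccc
The Acta2 promoter held 2 CArG boxes with 1 departure, whose first bases lie 84 and 34 bases before the start. It also held TGGGAA beginning 27 bases before the start, and these letters overlap the nearer CArG box. The Smtn promoter held TTCCCA beginning 68 bases before the start, and the Rgs5 promoter held none of these motifs. A perfect CArG box was in none of the 8 promoters, and the other 5 held no match to any of the motifs on either strand. Among 32851 promoter windows of the same length, 21.6% held TGGGAA on either strand, 1.47% a perfect CArG box and 7.24% a CArG box with 1 departure. The search that allowed a departure was added after the Acta2 sequence had been seen.

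The libraries held 38676018 to 39915276 counts in the vehicle group and 32709801 to 34706852 in the rebamipide group, and they differed in more than treatment. Mitochondrially encoded genes made up 2.59% to 5.36% of counts in vehicle and 13.3% to 21.96% in rebamipide libraries. Ucp1, which defines brown fat, had 0 counts in each vehicle library and 81048 to 220449 in the rebamipide libraries. Krt5, the keratin of basal keratinocytes, had 50427 to 77535 counts in vehicle libraries, 13196 and 5368 in rebamipide libraries 1 and 2 and 4 in rebamipide library 3, and Krt14, its partner, had 0 in that library. Rebamipide library 3 therefore carried the label of skin with almost no reads of these epidermal keratins, and values without it are given below where it bears on a call. All levels below are normalized CPM, counts per 1000000 reads scaled by TMM (the trimmed mean of M-values, which sets the bulk of genes level), unless FPKM is named. With TMM the median log2 fold change of all tested genes was -0.17, and scaled by total counts alone it was -0.78.

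None of the 10 genes passed the test between rebamipide and vehicle at an adjusted p under 0.05 (edgeR quasi-likelihood test, Benjamini-Hochberg over all tested genes). The background was 14.1% of tested genes called higher and 6.51% called lower (6.6% and 2.49% without rebamipide library 3, where calls fell over the whole table). The fitted fold change was above 0 for 8 members and below 0 for 2, 3 members had an unadjusted p under 0.05, all with a positive fold change (20.9% of tested genes had such a p with a positive fold change), and the lowest adjusted p was 0.0751. The median log2 fold change of the members was 0.28 under TMM scaling and -0.32 under total counts alone, 0.46 and 0.45 above the median of all tested genes under the same scaling. DESeq2, with which the study itself was analysed, called 1 of the 10 genes, Rgs5, against 16.6% of its tested genes called higher and 16% called lower.

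**Figure D1:**
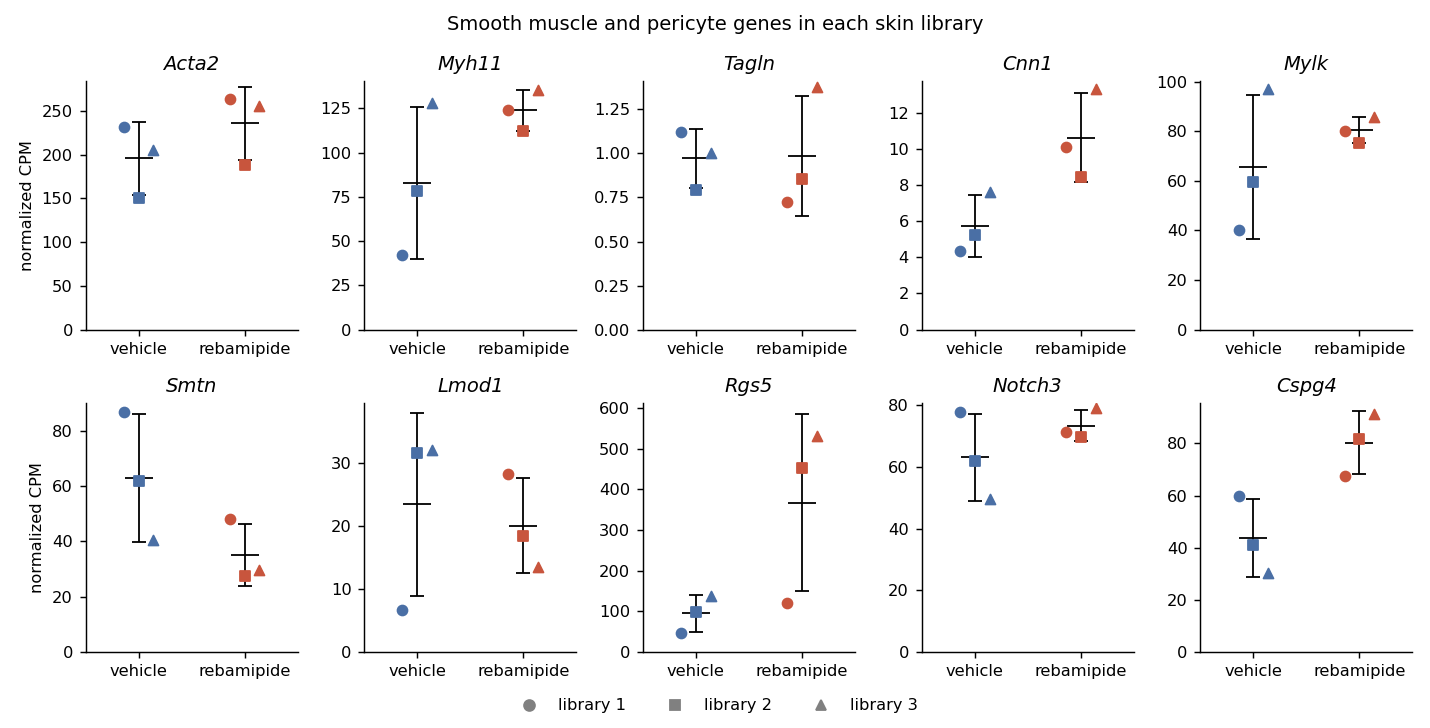
Normalized CPM (vertical axis, linear from 0, a separate scale per gene) of the 10 genes in each library, vehicle in blue and rebamipide in red, with the group mean and SD (n = 3) in black. For Cnn1 and Cspg4 the 3 red points all lie above the 3 blue ones, and Rgs5 is high in rebamipide libraries 2 and 3 but not in library 1.

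Rgs5 (ENSMUSG00000026678, chr1:169483070-169523382, plus strand) had the largest fold change of the 10 genes. Positions of the genes here and below are GRCm39, as in the deposited table. It encodes a regulator that shuts off G protein signalling and is a standard marker of pericytes. Its level was 47.2, 98.4 and 138 CPM in vehicle libraries 1 to 3 and 120, 453 and 531 in rebamipide libraries 1 to 3. Rebamipide libraries 2 and 3 stood well above all the others, while rebamipide library 1 fell below vehicle library 3, so the groups overlapped. The mean was 94.6 ± 45.7 CPM in vehicle and 368 ± 218 in rebamipide (SD, n = 3), a 3.89-fold difference (log2 fold change 1.96, SE 0.65, 95% interval 0.39 to 3.53, edgeR adjusted p = 0.0771). DESeq2 gave the same fold change with an adjusted p of 0.0163. Without rebamipide library 1 the log2 fold change was 2.38 with an edgeR adjusted p of 0.0248, and without rebamipide library 3 it was 1.61 with an edgeR adjusted p of 0.164. The call on Rgs5 therefore differed with the tool and with single libraries.

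Cspg4 (ENSMUSG00000032911, chr9:56772317-56807154, plus strand), the gene for the NG2 proteoglycan on the surface of pericytes, had 59.7, 40.8 and 30.3 CPM in vehicle libraries and 67.6, 81.7 and 91.5 in rebamipide libraries. The groups did not overlap, with all rebamipide libraries higher, as was the case for 24.5% of all tested genes. The mean went from 43.6 ± 14.9 to 80.3 ± 12.0 CPM (log2 fold change 0.88, SE 0.29, 95% interval 0.18 to 1.58), with an edgeR adjusted p of 0.0751. Leaving out vehicle library 1, the highest of its group, gave 1.15 with an edgeR adjusted p of 0.0376, and leaving out rebamipide library 3 gave 0.78 with an adjusted p of 0.180. Under scaling by total counts alone the log2 fold change was 0.24, lower by about as much as the median of all tested genes was under that scaling.

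Notch3 (ENSMUSG00000038146, chr17:32339794-32385826, minus strand), the receptor through which mural cells read Notch ligands on the endothelium, had 77.9, 61.9 and 49.5 CPM in vehicle and 71.4, 69.7 and 79.2 CPM in rebamipide libraries. The groups overlapped and the rebamipide libraries were close together. The log2 fold change was 0.22 (SE 0.21, 95% interval -0.30 to 0.73, edgeR adjusted p = 0.466), and it turned to -0.41 under total counts alone. With 1 library left out it ranged from 0.079 to 0.39 over both tools. The 3 pericyte genes thus gave different pictures in the same libraries. The ratio of Rgs5 to Notch3 was 0.606, 1.59 and 2.79 in vehicle libraries and 1.69, 6.49 and 6.70 in rebamipide libraries. Rebamipide library 1 lay inside the vehicle range of this ratio and the other rebamipide libraries above it.

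Among the contractile genes, Cnn1 and Smtn had the largest fitted fold changes, with opposite signs. Cnn1 (ENSMUSG00000001349, chr9:22010512-22020926, plus strand), calponin, which binds actin and slows the myosin motor, had 4.33, 5.22 and 7.61 CPM in vehicle libraries and 10.1, 8.46 and 13.3 in rebamipide libraries. The groups did not overlap, and the mean was 5.72 ± 1.70 CPM in vehicle against 10.6 ± 2.45 in rebamipide. The log2 fold change was 0.89 (SE 0.34, 95% interval 0.08 to 1.70, edgeR adjusted p = 0.103), it was 0.70 without rebamipide library 3 and 0.28 under total counts alone. Without vehicle library 3 it was 1.16 with edgeR (adjusted p = 0.0786) and 1.18 with DESeq2, which then called it (adjusted p = 0.0081). Smtn (ENSMUSG00000020439, chr11:3467523-3490612, minus strand), smoothelin, a filament protein of contractile smooth muscle, had 86.9, 61.8 and 40.5 CPM in vehicle libraries and 48.1, 27.6 and 29.5 in rebamipide libraries. Only rebamipide library 1 reached into the vehicle range. The mean was 63.1 ± 23.2 CPM in vehicle and 35.1 ± 11.3 in rebamipide (log2 fold change -0.85, SE 0.36, 95% interval -1.72 to 0.02, edgeR adjusted p = 0.134). Scaled by total counts alone, Smtn was the single member called lower, with a log2 fold change of -1.43 and an edgeR adjusted p of 0.0492. That scaling called 25.2% of all tested genes lower, so 1 of 10 members is below the background. DESeq2 called Smtn lower without vehicle library 3 (-1.07, adjusted p = 0.0340) and without rebamipide library 1 (-1.12, adjusted p = 0.0143), but not with all libraries. With edgeR, Smtn was at -0.55 without vehicle library 1 (adjusted p = 0.307) and at -0.73 without rebamipide library 3 (adjusted p = 0.290).

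The other contractile genes overlapped between the groups, with edgeR adjusted p-values from 0.307 for Myh11 to 0.978 for Tagln. Acta2 (ENSMUSG00000035783, chr19:34218490-34232990, minus strand), smooth muscle actin, had 232, 150 and 205 CPM in vehicle and 264, 188 and 256 in rebamipide libraries, with a log2 fold change of 0.27 (SE 0.26, 95% interval -0.35 to 0.89). With 1 library left out, Acta2 ranged from 0.089 to 0.42 over both tools. Myh11 (ENSMUSG00000018830, chr16:14012399-14109236, minus strand), the smooth muscle myosin heavy chain, had 42.3, 78.2 and 128 CPM in vehicle and 124, 112 and 136 in rebamipide libraries. Its rebamipide libraries lay within a 1.21-fold range and its vehicle libraries within a 3.03-fold range, and the log2 fold change was 0.58 (SE 0.40, 95% interval -0.38 to 1.54). It was 0.23 without vehicle library 1 and 1.05 without vehicle library 3 (edgeR adjusted p = 0.0822, and called by DESeq2 with an adjusted p of 0.0276). Mylk (ENSMUSG00000022836, chr16:34565580-34822790, plus strand), the kinase that switches myosin on, showed the same narrowing, with 40.1, 59.5 and 97.2 CPM in vehicle, 80.3, 75.1 and 85.8 in rebamipide and a log2 fold change of 0.29 (SE 0.33), which was 0.0064 without vehicle library 1 and 0.70 without vehicle library 3. Lmod1 (ENSMUSG00000048096, chr1:135252545-135295803, plus strand), leiomodin, which starts actin filaments, had 6.67, 31.5 and 32.0 CPM in vehicle and 28.3, 18.3 and 13.4 in rebamipide libraries. Of the vehicle libraries, the first was lowest for Lmod1, Myh11, Mylk, Cnn1 and Rgs5 and highest for Smtn, Notch3, Cspg4, Acta2 and Tagln, so the members did not move as a block even within vehicle. Under total counts alone the fold changes of Acta2 (-0.34), Myh11 (-0.02), Mylk (-0.31) and Notch3 were negative. That scaling lowers the median of all tested genes too (-0.78 against -0.17), so these signs hold only for a given scaling, and none of these genes passed the test.

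**Figure D2:**
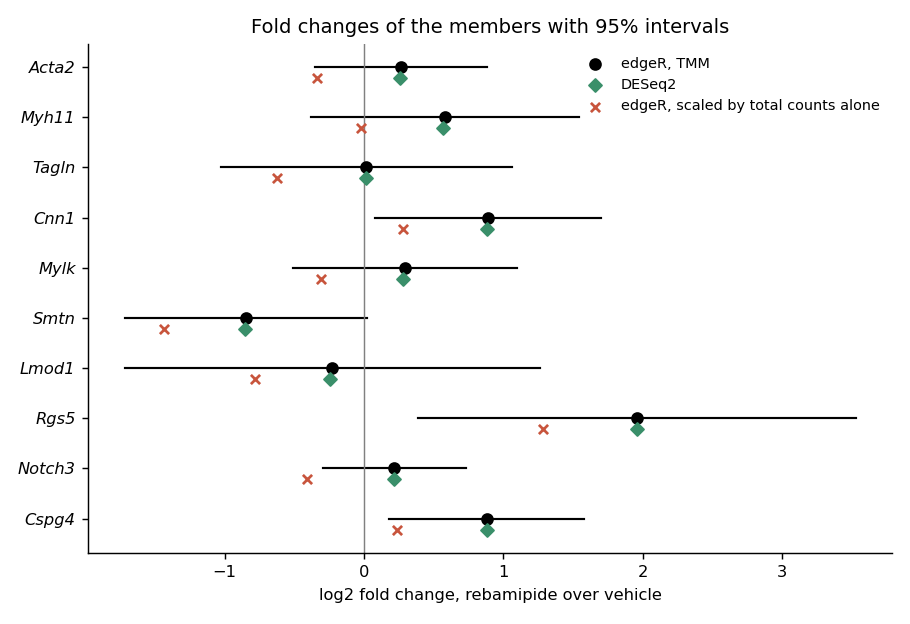
Log2 fold change of rebamipide over vehicle for each gene (horizontal axis). Black points with lines are edgeR estimates under TMM scaling with 95% intervals, green diamonds are DESeq2 estimates and red crosses are edgeR estimates scaled by total counts alone. The intervals of Rgs5, Cspg4 and Cnn1 lie above 0 before adjustment, and the crosses lie to the left of the points for every gene.

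Tagln (ENSMUSG00000032085, chr9:45840917-45847356, minus strand), transgelin, is usually an abundant smooth muscle transcript, but here it had 56, 39 and 47 counts in vehicle libraries and 22, 22 and 36 in rebamipide libraries. Acta2 had 4820 to 11577 counts in the same libraries. The Tagln mean was 0.973 ± 0.167 CPM in vehicle and 0.985 ± 0.343 in rebamipide, with a log2 fold change of 0.02 (SE 0.43), whose sign changed with the scaling. In the GRCm38 annotation (GENCODE M21), 62.4% of the 1988 exonic bases of Tagln are shared with Gm48529, an antisense gene that has no row in the deposited table, and 5.43% with Pcsk7 on the opposite strand. The strand setting used for counting was not given in the sources used here, and the part of this overlap in the low Tagln count was not tested. Of the other members, Smtn shares 16.3% of its exonic bases with the opposite-strand transcript Gm11946, Notch3 6.03% with Gm17276 and Mylk 4.87% with E130310I04Rik. The remaining 6 share none.

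Levels of different genes can be set side by side as FPKM, which divides by gene length. In vehicle skin the order ran from Acta2 (111 ± 25.2 FPKM, n = 3) through Rgs5 (25.6 ± 11.8), Smtn (18.0 ± 7.10), Myh11 (13.4 ± 6.66), Notch3 (9.72 ± 2.46), Lmod1 (7.27 ± 4.43), Mylk (7.17 ± 3.00), Cspg4 (4.56 ± 1.69) and Cnn1 (2.58 ± 0.70) to Tagln (0.608 ± 0.115). Among neighbours in that order, the library ranges were apart only between Acta2 and Rgs5 and between Cnn1 and Tagln. In rebamipide skin Acta2 (87.8 ± 23.9 FPKM) was again first and Rgs5 (62.3 ± 33.4) second, while Smtn (6.66 ± 3.07) stood behind Myh11 (13.2 ± 2.08) and Notch3 (7.34 ± 0.885). The rebamipide ranges of Smtn (4.70 to 10.2 FPKM) and Notch3 (6.43 to 8.20) overlapped, so this order does not hold in each library. Smtn was above Myh11 in vehicle libraries 1 (25.3 against 7.11 FPKM) and 2 (17.4 against 12.7), and below it in vehicle library 3 (11.2 against 20.4) and in the rebamipide libraries (10.2, 4.70 and 5.09 against 15.2, 11.02 and 13.5).

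Other genes of contraction, of mural cells and of the signals they receive, together with relatives of the members made in other cells, were read from lists of 82 genes in all, each of which was tested. Of these, 7 were called higher (8.54%) and 8 lower (9.76%), against 14.1% and 6.51% of all tested genes, and their median log2 fold change was -0.41 against -0.17 for all genes. Of the 17 genes of the pericyte and mural list, 3 rose and none fell by the test, 14 had a positive fitted fold change, and 9 were higher in all rebamipide libraries without overlap (24.5% of tested genes were), with a median log2 fold change of 0.72. Kcnj8, a potassium channel subunit of mural cells, rose from 4.99, 9.06 and 14.8 CPM in vehicle to 29.2, 44.6 and 43.6 in rebamipide libraries (log2 fold change 2.03, edgeR adjusted p = 0.0272). Higd1b, another pericyte marker, rose from 0.501, 1.18 and 1.99 CPM to 4.97, 5.92 and 6.37 (log2 fold change 2.23, edgeR adjusted p = 0.0373). Itga1, a collagen-binding integrin found on mural and other cells, rose from 22.6, 21.9 and 29.2 CPM to 38.5, 71.1 and 91.6 (log2 fold change 1.45, edgeR adjusted p = 0.035). These 3 genes rose in every rebamipide library, including the first, where Rgs5 did not stand out. Without rebamipide library 3 their log2 fold changes were 1.95 for Kcnj8, 2.16 for Higd1b and 1.17 for Itga1. The edgeR adjusted p-values in that fit were 0.061, 0.084 and 0.084. Scaled by total counts alone, Kcnj8 was still called, while Higd1b and Itga1 had edgeR adjusted p-values of 0.056 and 0.070. Pdgfrb, the PDGF-B receptor of pericytes, named after its values were seen, had 30.2, 69.1 and 65.6 CPM in vehicle and 103, 108 and 116 in rebamipide libraries (log2 fold change 0.99, edgeR adjusted p = 0.0793). Anpep, an aminopeptidase of pericytes and other cells, also named after its values were seen, was lower in each rebamipide library, with 75.8, 92.9 and 72.8 CPM in vehicle and 52.6, 22.4 and 15.6 in rebamipide libraries (log2 fold change -1.41, edgeR adjusted p = 0.0751). Steap4, a metalloreductase gene of mural and fat cells, had 109, 105 and 165 CPM in vehicle and 348, 196 and 231 in rebamipide libraries, with no overlap (log2 fold change 1.03, edgeR adjusted p = 0.0628, DESeq2 adjusted p = 0.0304). Ndufa4l2, a mitochondrial protein gene often used as a pericyte marker, had 26.8, 115 and 119 CPM in vehicle and 50.2, 39.0 and 20.9 in rebamipide libraries (log2 fold change -1.24, edgeR adjusted p = 0.179).

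Of the 14 genes of the Notch and PDGF list, 3 rose and 3 fell, against 14.1% and 6.51% of all tested genes. Those that rose were Pdgfb, the endothelial growth factor for pericytes, from 12.1, 18.2 and 23.3 CPM to 50.6, 64.7 and 73.0 (log2 fold change 1.81, edgeR adjusted p = 0.0141), Notch4, an endothelial Notch receptor (2.1, adjusted p = 0.0153), and Dll4, an endothelial Notch ligand (1.64, adjusted p = 0.0322). Those that fell were Notch2 (-1.22, edgeR adjusted p = 0.0435), the Notch feedback gene Nrarp (-1.73, adjusted p = 0.0379) and the Notch effector Rbpj (-0.92, adjusted p = 0.0487). Nrarp and Rbpj are named after their values were seen because they complete this count. Without rebamipide library 3, Pdgfb and Notch4 were still called (edgeR adjusted p = 0.0383 and 0.0381), while Dll4 (0.0867), Notch2 (0.120), Nrarp (0.0824) and Rbpj (0.141) were not. The log2 fold changes in that fit were 1.43 for Dll4, -1.06 for Notch2, -1.44 for Nrarp and -0.76 for Rbpj. Scaled by total counts alone, Dll4 had an edgeR adjusted p of 0.0722. The 3 that rose are genes of endothelial cells, and 4 of 8 endothelial markers rose too, as described below. The part of endothelial cell content in these values was not tested. Jag1, a Notch ligand made by endothelial cells and keratinocytes, had 239, 93.4 and 46.4 CPM in vehicle and 48.2, 47.4 and 55.2 in rebamipide libraries. Its vehicle libraries spread over the whole range, and it did not pass the test (log2 fold change -1.33, edgeR adjusted p = 0.138, and -0.49 without vehicle library 1). Hes1, a target of Notch, had a log2 fold change of -1.08 (edgeR adjusted p = 0.0853).

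**Figure D3:**
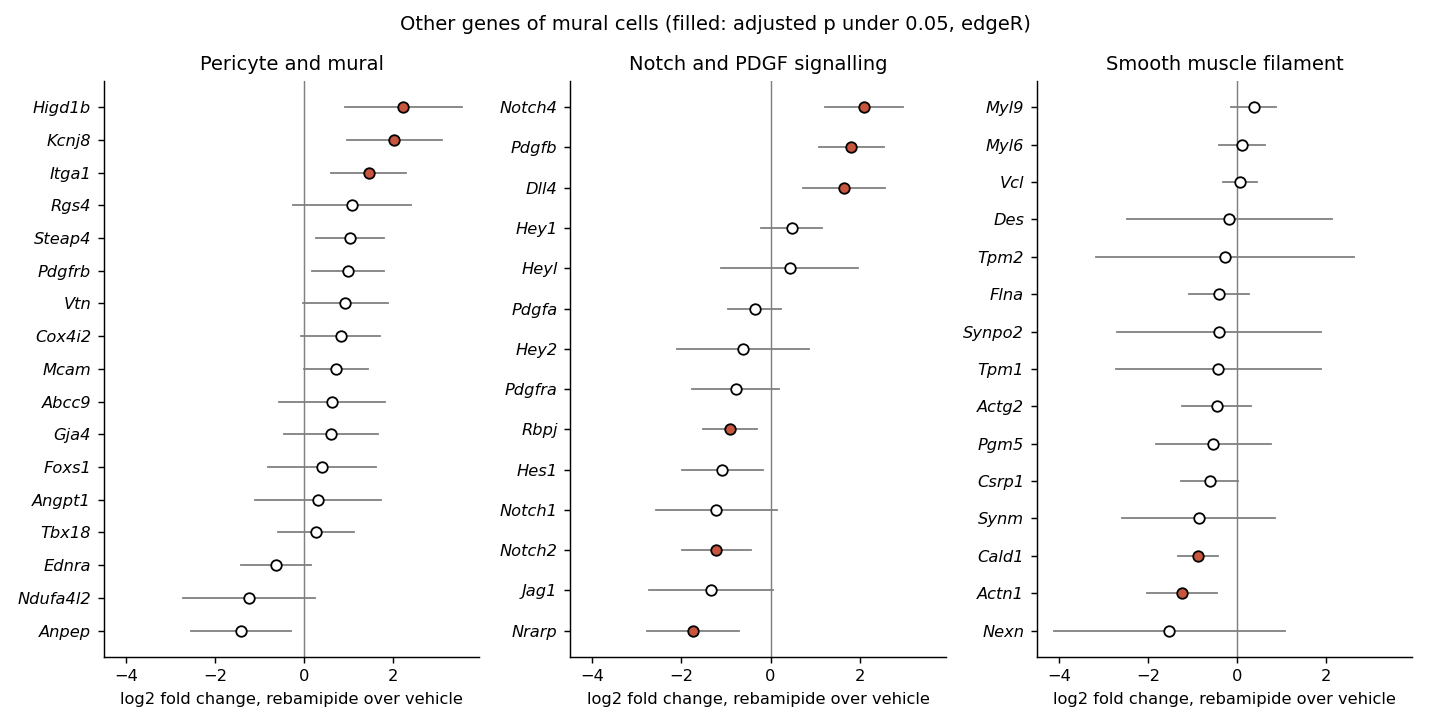
Log2 fold change of rebamipide over vehicle (horizontal axis) with 95% intervals for genes of 3 lists, ordered within each list. Filled red points passed an adjusted p of 0.05 (edgeR) and open points did not. 3 of the 17 pericyte and mural genes and 3 of the 14 Notch and PDGF genes rose, and 3 other Notch and PDGF genes and 2 of the 15 filament genes fell, against 14.1% of all tested genes that rose and 6.51% that fell.

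Of the 15 smooth muscle filament genes, 2 fell and none rose (6.51% of all tested genes fell and 14.1% rose), with a median log2 fold change of -0.42 against -0.17 for all genes. Cald1, caldesmon, which holds myosin off actin, fell from 152, 134 and 125 CPM in vehicle to 64.0, 82.9 and 76.9 in rebamipide libraries (log2 fold change -0.88, edgeR adjusted p = 0.0259). Actn1, the actin cross-linker alpha-actinin, fell from 127, 92.3 and 68.4 CPM to 55.0, 32.7 and 34.4 (log2 fold change -1.23, edgeR adjusted p = 0.0435). Both are also made by many non-muscle cells. Without rebamipide library 3 their log2 fold changes were -0.90 and -1.12, with edgeR adjusted p-values of 0.090 and 0.120. Csrp1, a filament-associated LIM protein, had a log2 fold change of -0.62 (edgeR adjusted p = 0.136). Of 11 genes that control contraction, 1 passed the test, against the same background: Rock2, a kinase that keeps myosin phosphorylated, fell from 30.1, 29.4 and 39.4 CPM to 16.2, 18.7 and 18.4 (log2 fold change -0.89, edgeR adjusted p = 0.0336). Without rebamipide library 3 Rock2 had a log2 fold change of -0.91 and an edgeR adjusted p of 0.0970. Ppp1r12a, the subunit that targets the phosphatase to myosin, had a log2 fold change of -0.95 (edgeR adjusted p = 0.0618). None of the 4 genes of the serum response factor and myocardin family was called. Srf had a log2 fold change of -0.25, Mrtfa of -0.83 and Mrtfb of 0.16, with edgeR adjusted p-values from 0.13 to 0.54. Of the 2 genes through which arrector pili muscles attach to the follicle, Itga8 had 8.93, 10.4 and 10.6 CPM in vehicle and 5.73, 3.98 and 6.03 in rebamipide libraries. It was lower in every rebamipide library, as were 24% of tested genes, and its edgeR adjusted p was 0.0624. Npnt, the ligand of that integrin, had overlapping groups (log2 fold change -0.65, edgeR adjusted p = 0.483). With 1 library left out, Npnt ranged from -1.64 to -0.21 over both tools. DESeq2 called it lower without rebamipide library 1, as it did 25.9% of all genes.

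Several filament genes are shared with skeletal muscle, a layer of which lies under mouse skin, and the skeletal markers varied widely between libraries. The summed level of 8 fast skeletal muscle genes was 5047, 21700 and 25055 CPM in vehicle and 31959, 6816 and 257 in rebamipide libraries. Tpm2, a tropomyosin, followed the same order, with 446, 1844 and 1855 CPM in vehicle and 2729, 642 and 68.0 in rebamipide libraries, and Tpm1 had 747, 1586 and 1789 CPM in vehicle and 2375, 567 and 146 in rebamipide libraries, highest and lowest in the same libraries. The fitted fold changes of Tpm1 (-0.42) and Tpm2 (-0.27) had standard errors of 0.95 and 1.19. Hspb6, a small heat shock protein of muscle, was also highest in rebamipide library 1, at 340 CPM, and lowest in rebamipide library 3, at 15.8. Among the members, Lmod1 ran in the order of the skeletal sum within vehicle and within rebamipide. Myh11, Mylk, Cnn1 and Rgs5 ran in that order within vehicle but not within rebamipide. The part of skeletal muscle in the values of the members and of the filament list was not tested.

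Of 24 tested relatives of the members in the same gene families, 2 rose (Rgs2 and Notch4) and 3 fell (Tagln3, Cnn3 and Notch2), against 14.1% and 6.51% of all tested genes. The fitted fold change was above 0 for 4 and below 0 for 20, with a median log2 fold change of -0.73. Rgs2, a relative of Rgs5 that is found in many cell types, rose from 30.6, 33.4 and 37.9 CPM to 95.7, 238 and 294 (log2 fold change 2.62, edgeR adjusted p = 0.0141). Like Rgs5 it was higher in rebamipide libraries 2 and 3 than in library 1, but its groups did not overlap. Rgs4, also a mural cell gene, had 4.95, 13.7 and 24.9 CPM in vehicle and 29.2, 30.9 and 31.8 in rebamipide libraries (log2 fold change 1.08, edgeR adjusted p = 0.191). With 1 library left out, Rgs4 ranged from 0.63 to 1.73 over both tools. DESeq2 called it higher without vehicle library 3, as it did 18.3% of all genes. Rgs16 had a log2 fold change of -2.27 (edgeR adjusted p = 0.072). The broadly expressed relatives of calponin and transgelin, Cnn3 (-1.05, edgeR adjusted p = 0.0417), Cnn2 (-1.16, adjusted p = 0.0635) and Tagln2 (-1.02, adjusted p = 0.118), had negative fitted fold changes where Cnn1 had a positive fold change, and of these Cnn3 fell by the test. Without rebamipide library 3, Rgs2 was still called (edgeR adjusted p = 0.0315), while Cnn3 (0.120) and Tagln3 (0.0870) were not. Cnn3 and Tagln3 had log2 fold changes of -1.01 and -6.43 in that fit. Among Notch receptors, Notch4 rose, Notch2 fell, and Notch1 had a log2 fold change of -1.22 (edgeR adjusted p = 0.158), which was -0.45 without vehicle library 1. The cytoplasmic actins Actb (-0.56) and Actg1 (-0.98) and the non-muscle myosins Myh9 (-0.32) and Myh10 (0.51) did not pass the test, with edgeR adjusted p-values from 0.0953 to 0.417. Acta1, skeletal actin, had 1560 to 7225 CPM in vehicle and 80.9 to 10858 in rebamipide libraries.

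Endothelial marker genes moved with the groups, and the pericyte genes are given here relative to them. Of 8 endothelial markers, 4 rose (Cdh5, Tie1, Kdr and Emcn) and 7 were higher in all rebamipide libraries without overlap, against 14.1% and 24.5% of all tested genes. Without rebamipide library 3 Emcn had a log2 fold change of 1.39 and an edgeR adjusted p of 0.0895. Vwf had overlapping groups, and the median log2 fold change of the 8 markers was 1.59. Their summed level was 258, 390 and 620 CPM in vehicle and 1187, 1401 and 1646 in rebamipide libraries, with no overlap. Per 100 CPM of these endothelial genes, Rgs5 had 18.3, 25.2 and 22.3 CPM in vehicle and 10.1, 32.3 and 32.2 in rebamipide libraries, so that its groups overlapped on this scale too. Notch3 had 30.1, 15.9 and 7.99 per 100 endothelial CPM in vehicle and 6.02, 4.97 and 4.81 in rebamipide libraries. Myh11 had 16.4, 20.1 and 20.6 in vehicle and 10.5, 8.01 and 8.24 in rebamipide libraries. Notch3, Myh11 and Acta2 (33.1 to 89.7 in vehicle and 13.4 to 22.2 in rebamipide) were lower in all rebamipide libraries on this scale, but so were 79% of all tested genes, since the endothelial sum itself differed between the groups. Cspg4, at 4.88 to 23.1 in vehicle and 5.56 to 5.83 in rebamipide, overlapped. General adipocyte markers summed to 1651, 2571 and 3788 CPM in vehicle and 11566, 21737 and 24954 in rebamipide libraries. Myofibroblast and wound markers summed to 1002, 1398 and 1277 CPM in vehicle and 972, 314 and 233 in rebamipide libraries. Brown adipocyte markers summed to 214 to 384 CPM in vehicle and 5040 to 12960 in rebamipide libraries. Ucp1 and Cidea made up most of that sum in rebamipide, and Elovl3 of the same list was lower in all rebamipide libraries (33.3 to 83.1 CPM against 129 to 238 in vehicle). Rebamipide library 1 was the lowest of its group for the brown adipocyte sum and for the endothelial sum, as it was for Rgs5. Fibroblast markers summed to 12293 to 18339 CPM in vehicle and to 15602, 3650 and 1921 in rebamipide libraries, and basal keratinocyte markers to 2644 to 4331 and 224 to 1294. The part of these other cell types in the members' values was not tested.

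**Figure D4:**
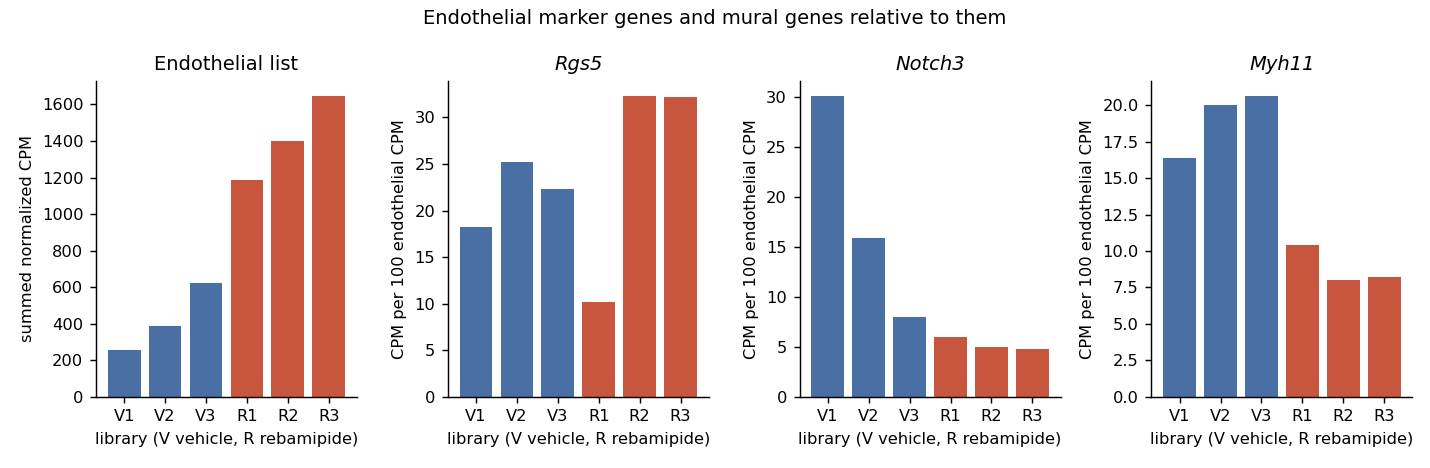
Summed normalized CPM of 8 endothelial genes in each library, and Rgs5, Notch3 and Myh11 per 100 CPM of that sum (bars from 0, vehicle libraries in blue, rebamipide in red). The endothelial sum is 258 to 620 in vehicle and 1187 to 1646 in rebamipide, Rgs5 overlaps between the groups on this scale, and Notch3 and Myh11 are lower in every rebamipide library, as 79% of tested genes are on this scale.

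The genes whose level followed Myh11 and Rgs5 most closely over the 6 libraries were different for the 2 members. Among 13423 genes with a mean of at least 50 counts, those with the highest Pearson r to Myh11 were Enpep (0.997), Hdac7 (0.995), Hebp1 (0.994), Atp2a3 (0.992) and Gja5 (0.991), and those with the highest r to Rgs5 were E130311K13Rik (0.999), Nfia (0.998), Marchf6 (0.995), Nampt (0.995) and Tmcc3 (0.994). These are the extremes of many genes over 6 points that share the treatment and the makeup of each library, and they are given as a description. Enpep, an aminopeptidase, had 17.4, 32.2 and 55.2 CPM in vehicle and 50.6, 49.5 and 54.8 in rebamipide libraries, the same narrowing as Myh11. Nampt, which makes an NAD precursor, had 58.3, 87.9 and 112 CPM in vehicle and 115, 299 and 295 in rebamipide libraries, with rebamipide library 1 close to vehicle library 3, as for Rgs5.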

How the data were processed

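Poly(A) RNA-seq libraries from 6 mice, 3 per group, were compared, with groups taken from the sample labels. The counts deposited by the authors are whole reads per gene, and the FPKM values deposited by the authors divide them by gene length and library total. The submitters' processing notes name fastp 0.22.0, HISAT2 2.1.0, HTSeq 0.9.1 and GRCm39. The members and gene lists were chosen with earlier results of these data known. Counts were fitted over the whole table with edgeR 4.0.16 in R 4.3.3 (TMM factors, filterByExpr, quasi-likelihood test, Benjamini-Hochberg adjustment). DESeq2 1.42.0, limma 3.58.1, other scalings and filters, the study's threshold on the edgeR fit and leaving out each library were alternatives. Named genes were all members, up to 3 genes per list with the smallest p and the 2 with the highest mean FPKM, relatives with a mean of at least 50 counts, and the 5 genes most like Myh11 and Rgs5. On counts simulated with a dispersion of 0.1 for every gene and 200 genes changed 4-fold, edgeR recovered 96.5% over 14761 genes with 7 false calls. The simulation checked the fitting steps. It did not copy the spread of these libraries, so the recovered share does not carry over to the members. Libraries of a group differed by more than counting error (chi-square over its degrees of freedom 79.1 to 714). Promoters came from RefSeq (GRCm38.p6), and coordinates of the builds were not mixed. Of the annotation in the table, names, positions and lengths were used.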

Additional observations from a re-analysis of the deposited data

How the results depend on the processing

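The count of 0 of the 10 members called higher became 1 (Rgs5) with DESeq2 and with the replicate block. It also became 1 (Rgs5) with the study's threshold, applied here to the edgeR fit and in the study to DESeq2. That threshold is an unadjusted p under 0.05 with a log2 fold change beyond 1 in size, which 14.3% of genes passed as higher and 14.5% as lower. The count of 0 called lower became 1 (Smtn) with total counts alone and with limma on log2(FPKM + 1), which called 25.2% and 32.3% of all genes lower. Of the 82 other genes, 7 higher became 4 with total counts alone, 5 with the replicate block and 5 with limma on log2(FPKM + 1). Of all genes, these settings called 8.46%, 9.63% and 9.42% higher, against 14.1%. The 8 lower became 16 with DESeq2, 19 with total counts alone, 5 with no filter, 5 with the replicate block and 24 with limma on log2(FPKM + 1). Over all genes the shares called lower under these settings were 16%, 25.2%, 4.5%, 5.75% and 32.3%, against 6.51%, so the counts of the lists moved with the whole table. Leaving out each library gave 0 to 1 members higher with edgeR and 0 to 3 with DESeq2, 0 and 0 to 1 lower, 0 to 7 and 8 to 14 other genes higher, and 0 to 17 and 5 to 29 lower. The shares of all genes in these fits were 0% to 18.3% higher and 0% to 12.8% lower with edgeR, and 12.2% to 22.1% higher and 9.28% to 25.9% lower with DESeq2. The members called in at least 1 of these fits were Cspg4 and Rgs5 with edgeR, and these with Myh11, Cnn1 and Smtn (lower) with DESeq2. Without vehicle library 2 edgeR called 0 of 14964 genes (4116 at an unadjusted p under 0.05), and DESeq2 called 2662 higher and 2114 lower. Without rebamipide library 2 edgeR called 1 gene higher and 0 lower (4062 at an unadjusted p under 0.05).

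Signs changed for Acta2 (-0.34 with total counts alone, -0.34 with limma on FPKM), Myh11 (-0.020 with total counts alone), Mylk (-0.31, -0.21), Notch3 (-0.41, -0.34), Mrtfb (-0.46, -0.39) and Myh10 (-0.14, -0.092), in the order total counts, FPKM. Tagln was at -0.019 with limma-voom, -0.053 with upper quartile factors, -0.62 with total counts alone, -0.0082 with no filter, -0.056 with at least 10 counts in every library, -0.018 with the replicate block and -0.21 with FPKM, and Lmod1 at 0.039 with limma-voom. Total counts alone and FPKM also lowered the median of all genes, from -0.17 to -0.78 and -0.46, and the members' median stayed 0.45 and 0.25 above it, against 0.46. The cause of the other sign changes was not tested. With 1 library left out, log2 fold changes over both tools ranged from -0.29 to 0.22 for Tagln, -0.68 to 0.083 for Lmod1, -1.96 to 0.13 for Tpm1, -1.99 to 0.32 for Tpm2, -1.58 to 0.40 for Hspb6, -2.22 to 0.34 for Acta1, -2.48 to 0.16 for Actc1, -2.25 to 0.087 for Mylk2, -2.03 to 0.091 for Smtnl1 and -1.56 to 0.43 for Smtnl2.

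With the replicate number as a block, Rgs5 had a log2 fold change of 1.83 (edgeR adjusted p = 0.0272), and over all genes 1432 were called higher and 855 lower. Same-numbered libraries of the groups did not deviate together (r = -0.0933, -0.0238 and -0.0551). Differently numbered libraries gave r from -0.34 to 0.344, so this check cannot tell whether same-numbered libraries shared more than a number. With 3 mice per group, and groups that also differed in mitochondrial share and in the markers of several cell types, differences in the members below the size of the intervals given were not detectable at this depth of replication.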

Other observations

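Tagln3, a neuronal relative of transgelin, had 24.4, 8.79 and 0.342 CPM in vehicle and 0.0988, 0.156 and 0.191 CPM in rebamipide libraries, so that its fold rested on vehicle libraries 1 and 2. Its log2 fold change was -6.21 with edgeR (adjusted p = 0.0382) and -4.76 with limma-voom (adjusted p = 0.27). Mylk3, a kinase of heart muscle, had 4.45, 1.83 and 0.599 CPM in vehicle and 0.527, 0.0779 and 0.0763 in rebamipide libraries, with a log2 fold change of -3.29 (edgeR adjusted p = 0.0756). Mylk4, Lmod2 and Lmod3, relatives found in striated muscle, spanned 0.916 to 158, 0.611 to 77.7 and 1.07 to 53.0 CPM over the 6 libraries, each lowest in rebamipide library 3.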
